A study of Mus musculus with 24 samples.

Results

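The 9 genes described here belong to the sensing of RNA in the cytosol and to the type I interferon response. They are the RNA sensors Ddx58 (RIG-I) and Ifih1 (MDA5), the transcription factors Irf1 and Irf7, the interferon-stimulated genes Isg15, Ifit1, Ifit3 and Usp18, and the chemokine gene Cxcl10. They were chosen by name, and every probe whose accession maps to one of the 9 symbols was taken, which gave 13 of the 41174 probes on the array, for 9 of 16358 genes with a symbol. The series measured R1 embryonic stem (ES) cells, an established line from the mouse, after lentiviral delivery of a short hairpin RNA, on 24 Agilent arrays with 2 colours. On day 13 after infection there were 5 groups: a pair of hairpins against the Mediator kinase gene Cdk8 (shCdk8-1 and shCdk8-2), a pair (shMed12-1 and shMed12-2) against Med12, the Mediator subunit that activates that kinase, and the non-targeting control shNTC. On day 8 there were 3 groups: shCdk8-1, shCdk8-2 and shNTC. Each of the 8 groups had 3 arrays. Every group, shNTC included, had received a virus and a hairpin, and cells without virus were not analysed here. Whether hairpin delivery itself shows as an antiviral response could therefore not be tested. The arrays allow 3 kinds of comparison: each hairpin against shNTC of its day, the hairpins of one target against each other, and day 13 against day 8 within a hairpin. A response shared by all groups would not show in the first 2. In the third, time since delivery cannot be told apart from time in culture. Replicates are labelled as biological, without a statement that each had its own culture or infection. The spread behind each p-value is that between these arrays and may be technical.

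When viral RNA reaches the cytosol, RIG-I and MDA5 bind it and signal through Mavs to Irf3 and Irf7, which switch on the type I interferon genes. Secreted interferon then acts through its receptor and the kinases Jak1 and Tyk2 on genes such as Isg15, Ifit1 and Ifit3, whose promoters carry the interferon-stimulated response element (ISRE). The response to interferon gamma uses the gamma-activated sequence (GAS), as in the Irf1 promoter. Mouse ES cells are known for a weak interferon response to viral RNA, and hairpins are double-stranded RNA, which some cell types sense.

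Values are log2 ratios of the cells' RNA (Cy5) to a universal mouse reference RNA made from several cell lines (Cy3), so a negative value means less signal from the cells than from the reference. Ratios of different probes are not set against each other. Changes were called where the adjusted p was below 0.05 in a limma fit over the 28231 probes kept, those well above background in all 3 arrays of at least 1 group. Of the 13 probes, 10 were kept, for 8 of the 9 genes, and Ifit1 had none. Cdk8 fell with each Cdk8 hairpin (log2 fold changes of its probes between -0.95 and -0.30) and Med12 with each Med12 hairpin (-0.85 or lower on each probe). Between 48.9% and 76.1% of the probes on an array were well above background in Cy5. On 2 arrays, replicate 3 of shMed12-1 (day 13) and replicate 1 of shCdk8-1 (day 8), ratios were compressed towards 0, with slopes of 0.79 and 0.78 on the other replicates of their group against 0.97 to 1.13 on the other 22 arrays. Of the 10 kept probes of the 9 genes, 10 on the first and 9 on the second of these arrays lay above the mean of the other replicates, with median gaps of 0.54 and 0.61. Of 9 ES cell markers, 8 were on the array and each was well above background on all 24 arrays. Of the markers of other cell types, 7 of 10 for fibroblasts, 3 of 8 on the array for leukocytes and 1 of 5 for endothelium were well above background on all 24 arrays, and the leukocyte gene Ptprc on 5. In bulk RNA, fewer cells that express a gene and less RNA per cell cannot be told apart.

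The 9 genes did not move as a block. The largest changes were in Cxcl10 and Irf1, which were higher on day 13 than on day 8 in all 3 hairpin lines measured on both days, shNTC included, and which were higher with some knockdown hairpins than with shNTC. Ddx58 was lower on day 13 than on day 8 in shNTC cells on both measured probes, and lower with both Cdk8 hairpins than with shNTC on day 8 on 1 of the 2. Isg15 rose with shMed12-2 and with time in shCdk8-2 cells. Irf7, Ifit3, Usp18 and Ifih1 were not called in any comparison, although Ifih1, Usp18 and Ifit3 were in some under other settings. Ifit1 was not well above background on any array.

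**Figure D1:**
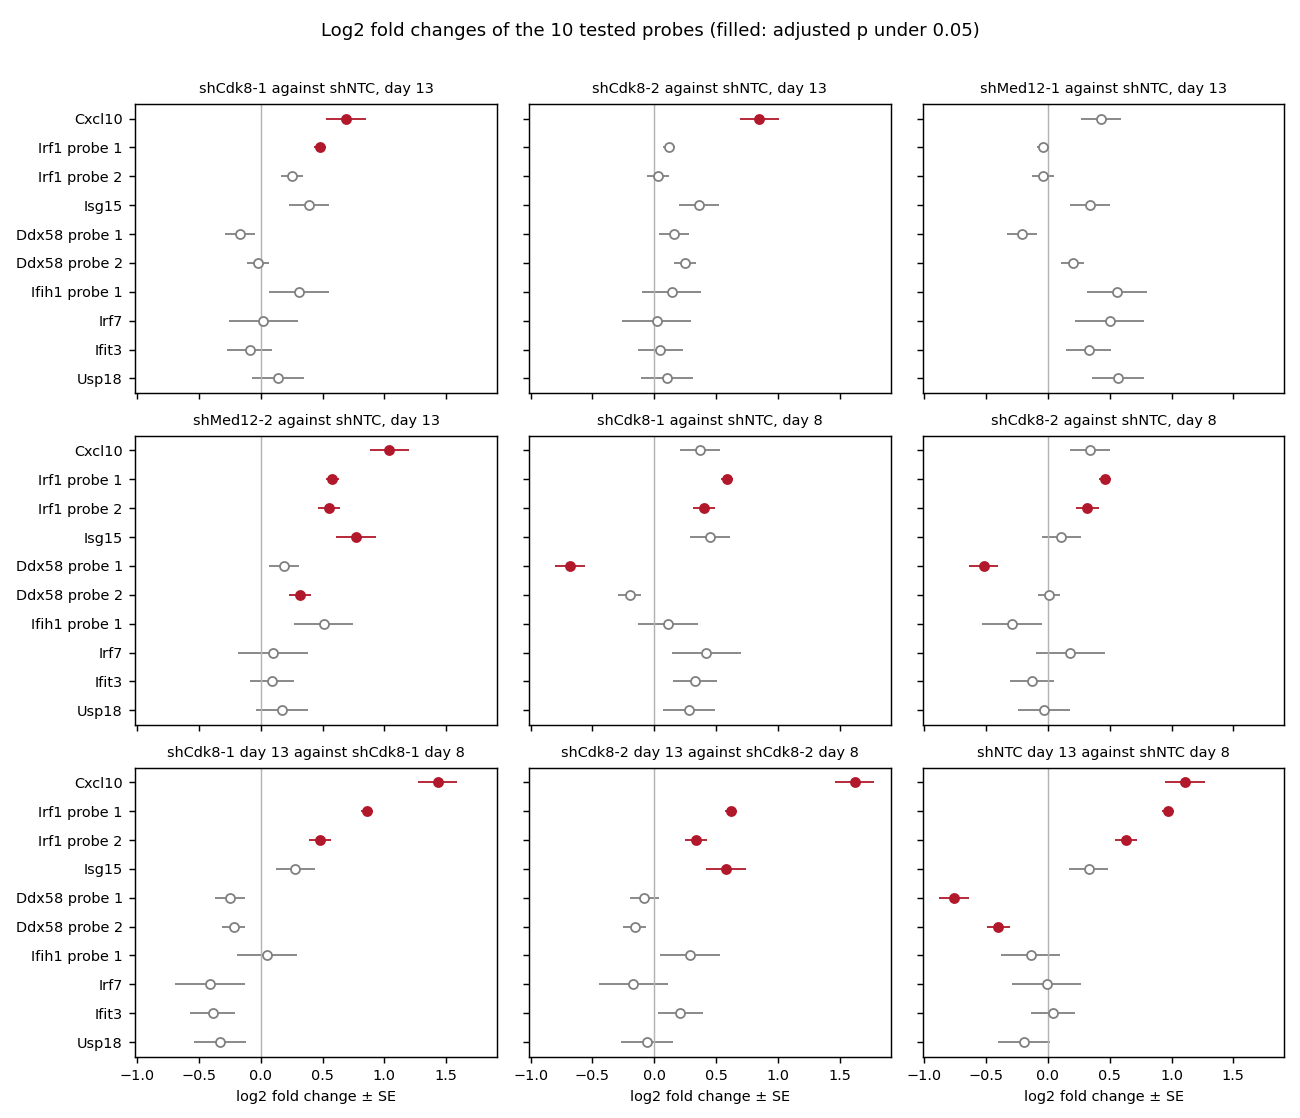
Log2 fold changes (x axis, points) with the standard error of the fit (bars) of the 10 tested probes (y axis) in 9 comparisons (panels). Filled points were called at an adjusted p under 0.05. Cxcl10 and both Irf1 probes were called in each of the 3 comparisons of day 13 with day 8, and Irf7, Ifit3, Usp18 and Ifih1 in none.

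Of the 10 kept probes, 2 were called with shCdk8-1 against shNTC on day 13, where 11.7% of all kept probes were called, and 1 with shCdk8-2, where 11.0% were. None of the 10 was called by limma with shMed12-1 against shNTC, where 23.5% of all kept probes were. At the looser cutoff of an unadjusted p under 0.05 there were 4, and the share of all kept probes at that cutoff is not given. With shMed12-2 against shNTC 5 were called, all higher, beside 16.9% of all kept probes. On day 8, 3 were called with shCdk8-1 and 3 with shCdk8-2, beside 16.1% and 13.7% of all kept probes. Day 13 against day 8 gave 3 calls in shCdk8-1 cells, 4 in shCdk8-2 cells and 5 in shNTC cells, beside 22.9%, 26.6% and 17.2% of all kept probes. The median log2 fold change of the 10 probes was 0.20 and 0.13 with shCdk8-1 and shCdk8-2 on day 13. It was 0.33 with shMed12-1, 0.42 with shMed12-2, and 0.35 and 0.06 with shCdk8-1 and shCdk8-2 on day 8. Without the 2 arrays with compressed ratios it was 0.16 with shMed12-1 and 0.09 with shCdk8-1 on day 8. It was -0.08, 0.25 and 0.01 for day 13 against day 8 in shCdk8-1, shCdk8-2 and shNTC cells, and 0.19 in shCdk8-1 cells without those arrays. The median over all kept probes lay between -0.0037 and 0.0025 in these comparisons. The 4 knockdown comparisons of day 13 share their shNTC arrays, as do those of day 8, so their values are not independent. Between the Cdk8 hairpins on day 8 limma called 0 of the 10 probes, beside 16.6% of all kept probes. At an unadjusted p under 0.05 there were 3, again without the matching share of all kept probes. Without the 2 arrays with compressed ratios no call was lost, and the counts were 3 with shCdk8-1 and 2 with shCdk8-2 on day 13, 1 with shMed12-1, 6 with shMed12-2, 3 and 4 with shCdk8-1 and shCdk8-2 on day 8, and 5, 5 and 6 for day 13 against day 8 in shCdk8-1, shCdk8-2 and shNTC cells. With median centring in place of loess, 11 of the 33 called values of the 9 genes were still called. The shares of all kept probes called under these other settings are not given.

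The promoters of Irf1, Cxcl10 and Isg15, which were called in some comparisons, and of Ifit3, which was measured and called in none, are shown for the response elements that interferon signalling uses. The ISRE was searched as GAAANNGAAA and the GAS as TTCNNNGAA, on both strands, in windows from 250 bases before to 50 bases after each RefSeq gene start (GRCm38.p6). Of the members, 8 were found in the RefSeq table with 9 windows, all but Usp18, since Irf1 has 2 starts. An ISRE match was present in 6 of the 9 windows, against 3.44% of all 32851 windows, and a GAS match in 1 of 9, against 8.3% of all windows. The 250 bases before the start are printed 5′ to 3′ on the strand of the gene, with matches in capitals, for Irf1 (chr11:53769764-53770013, plus strand), Cxcl10 (chr5:92348890-92349139, minus strand), Isg15 (chr4:156200819-156201068, minus strand) and Ifit3 (chr19:34583279-34583528, plus strand).
Irf1: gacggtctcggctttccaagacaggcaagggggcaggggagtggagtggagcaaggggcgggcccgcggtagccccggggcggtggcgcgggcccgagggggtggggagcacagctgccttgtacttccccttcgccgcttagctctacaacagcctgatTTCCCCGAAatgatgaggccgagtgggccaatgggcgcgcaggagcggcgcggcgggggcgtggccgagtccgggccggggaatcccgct
Cxcl10: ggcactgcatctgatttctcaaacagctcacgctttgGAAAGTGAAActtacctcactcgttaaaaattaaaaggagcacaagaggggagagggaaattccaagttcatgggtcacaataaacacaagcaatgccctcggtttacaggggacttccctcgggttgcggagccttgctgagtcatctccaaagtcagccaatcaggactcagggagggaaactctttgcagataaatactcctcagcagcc
Isg15: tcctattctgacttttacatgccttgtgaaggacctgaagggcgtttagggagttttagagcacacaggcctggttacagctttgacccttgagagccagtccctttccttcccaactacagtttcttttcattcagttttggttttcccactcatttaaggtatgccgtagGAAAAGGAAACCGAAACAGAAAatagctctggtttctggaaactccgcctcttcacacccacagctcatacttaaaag
Ifit3: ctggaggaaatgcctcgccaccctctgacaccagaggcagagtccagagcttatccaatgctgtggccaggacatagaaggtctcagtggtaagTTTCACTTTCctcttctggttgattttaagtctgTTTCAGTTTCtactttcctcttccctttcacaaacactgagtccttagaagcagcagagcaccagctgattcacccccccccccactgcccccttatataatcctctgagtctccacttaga
The printed Irf1 window held the GAS match, 90 bases before the start, and no ISRE match. The window of the second Irf1 start, which is not printed, held neither. Cxcl10 held 1 ISRE match, 213 bases before the start. Isg15 held 3 overlapping ISRE matches, which begin 78, 72 and 66 bases before the start, and Ifit3 held 2, at 156 and 122 bases. Of the members not printed, Ifit1 had ISRE matches 104 and 85 bases before the start, Ddx58 had one 3 bases and Ifih1 one 33 bases after it, and Irf7 had no match to either motif. Genes with an ISRE match thus include Cxcl10, which was called in 6 of the 9 comparisons plotted by fold change, and Ifit3, which was called in none. A match describes these letters and not a site in use.

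Ddx58 encodes RIG-I, the sensor of short double-stranded RNA with a 5′ triphosphate. Probe 1 gave -0.09, -0.21 and -0.17 in the 3 shNTC arrays of day 13, against 0.66, 0.69 and 0.45 in those of day 8. The days did not overlap. Ddx58 fell by 0.76 (SE 0.12) on this probe in shNTC cells (limma, adjusted p = 9.7e-05) and by 0.40 (SE 0.09, adjusted p = 0.0033) on probe 2. On the 2 slides that held both days the differences were -0.87 and -0.86 on probe 1 and -0.41 and -0.32 on probe 2. In shCdk8-1 cells the change from day 8 was -0.25 (adjusted p = 0.14) on probe 1 and -0.22 (adjusted p = 0.089) on probe 2, not called. In shCdk8-2 cells it was -0.08 (adjusted p = 0.68) and -0.16 (adjusted p = 0.20), not called.

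With the Cdk8 hairpins on day 8, Ddx58 probe 1 gave -0.13, -0.11 and 0.00 in shCdk8-1 cells and 0.09, 0.20 and -0.04 in shCdk8-2 cells, against the 0.45 to 0.69 of shNTC cells. It fell by 0.68 (SE 0.12, limma adjusted p = 0.00041) with shCdk8-1 and by 0.52 (SE 0.12, adjusted p = 0.0048) with shCdk8-2, and no array of either hairpin overlapped shNTC. Probe 2 was not called: it differed by -0.20 (adjusted p = 0.14) with shCdk8-1 and by 0.01 (adjusted p = 0.95) with shCdk8-2, with 95% intervals of -0.38 to -0.01 and -0.17 to 0.20. With shCdk8-1 it did not overlap shNTC, and it was called lower in 5 of 20 alternatives, at -0.56 with the log ratio of Feature Extraction (adjusted p = 0.014), -0.56 with the authors' values, -0.24 without background subtraction, -0.27 with quantile normalization and -0.37 with Cy5 alone (range of adjusted p over all alternatives 0.013 to 0.98). On the slide that held shCdk8-2 and shNTC of day 8, the difference was -0.70 on probe 1 and 0.02 on probe 2. No slide held shCdk8-1 and shNTC of the same day. With slide as a fixed block the fall on probe 1 with shCdk8-1 was -0.61 and no longer called (adjusted p = 0.061, range over all alternatives 4.9e-06 to 0.061).

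On day 13 the Cdk8 hairpins differed from shNTC by -0.17 (shCdk8-1) and 0.16 (shCdk8-2) on probe 1, not called. The Cdk8 effect on day 13 minus that on day 8, averaged over both hairpins, was 0.59 (SE 0.14, limma adjusted p = 0.032) on probe 1, beside 2.02% of all kept probes called in this comparison. On probe 2 it was 0.21 (adjusted p = 0.45). With the Med12 hairpins, Ddx58 probe 1 was at -0.37 ± 0.26 in shMed12-1 cells and 0.03 ± 0.15 in shMed12-2 cells, against -0.16 ± 0.06 in shNTC cells (SD, n = 3 each). Neither was called against shNTC, at -0.21 (adjusted p = 0.20) and 0.19 (adjusted p = 0.33). Without shMed12-1 replicate 3, an array with compressed ratios, the difference with shMed12-1 was -0.36 and was called (adjusted p = 0.027, range over all alternatives 0.02 to 0.93). Probe 2 rose by 0.32 (SE 0.09, adjusted p = 0.014) with shMed12-2, and differed by 0.46 and 0.15 on the slides shared with shNTC. That call was lost without shNTC day 13 replicate 1 (0.31, adjusted p = 0.058) or replicate 2 (0.29, adjusted p = 0.068) and without shMed12-2 replicate 1 (0.29, adjusted p = 0.064).

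The order of the group means on Ddx58 probe 1 ran from shNTC on day 8 (0.60 ± 0.13), apart from all others, through shCdk8-2 day 8, shMed12-2 day 13, shCdk8-2 day 13, shCdk8-1 day 8 and shNTC day 13, neighbours of which overlapped, to shCdk8-1 (-0.33 ± 0.02) and shMed12-1 (-0.37 ± 0.26) on day 13, which overlapped each other (SD, n = 3 each). The shCdk8-1 arrays of day 13 did not overlap those of shNTC above them. On probe 2 the order was another one: shCdk8-2 and shNTC of day 8 were highest, at -0.10 ± 0.08 and -0.11 ± 0.05, and shNTC and shCdk8-1 of day 13 lowest, at -0.51 ± 0.10 and -0.53 ± 0.20. Probe 3 was well above background in Cy5 on 0 of 24 arrays and in the reference on 1.

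Ifih1 encodes MDA5, the sensor of long double-stranded RNA. Its probe 1 was well above background on 8 of 24 arrays and probe 2 on 0 of 24. On probe 1 it was well above background in 3 of 3 arrays of shCdk8-1, 1 of shCdk8-2, 1 of shMed12-1 and 2 of shMed12-2 on day 13, against 0 of 3 in shNTC. On day 8 it was so in 1 array of shCdk8-1, 0 of shCdk8-2 and 0 of shNTC. The ratios were -1.80, -1.60 and -1.70 in shMed12-2 cells, against -2.31, -2.13 and -2.20 in shNTC cells of day 13, with no overlap. The fitted difference was 0.51 (SE 0.24) and was not called (limma, adjusted p = 0.16). Since no shNTC array was well above background, the level there has only an upper bound. Against that bound the mean was 1.37-fold higher with shMed12-2 and 1.12-fold higher with shCdk8-1. The mean of shMed12-2 includes 1 array that was not well above background, so its fold is no lower bound. The probe was kept only through shCdk8-1, so both folds are descriptions. They set the Cy5 channel mean of the brighter group against the lowest signal well above background. They are open to dye bias because no dyes were swapped. Neither difference was called (limma, adjusted p = 0.16 and 0.48). With shMed12-1 the difference was 0.56 (adjusted p = 0.091), highest on the array with compressed ratios, which was not well above background, and it was 0.24 (adjusted p = 0.18) without the 2 compressed arrays. Without them the difference with shMed12-2 stayed at 0.51 and was called (adjusted p = 0.0014, range over all alternatives 0.00052 to 0.43). The values depend on the background correction: with the log ratio of Feature Extraction they were 1.68 with shCdk8-1 (0.31 here), 1.19 with shMed12-1 and 1.58 with shMed12-2, all called (adjusted p = 0.00091, 0.0088 and 0.0011), and the authors' values gave the same sizes.

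**Figure D2:**
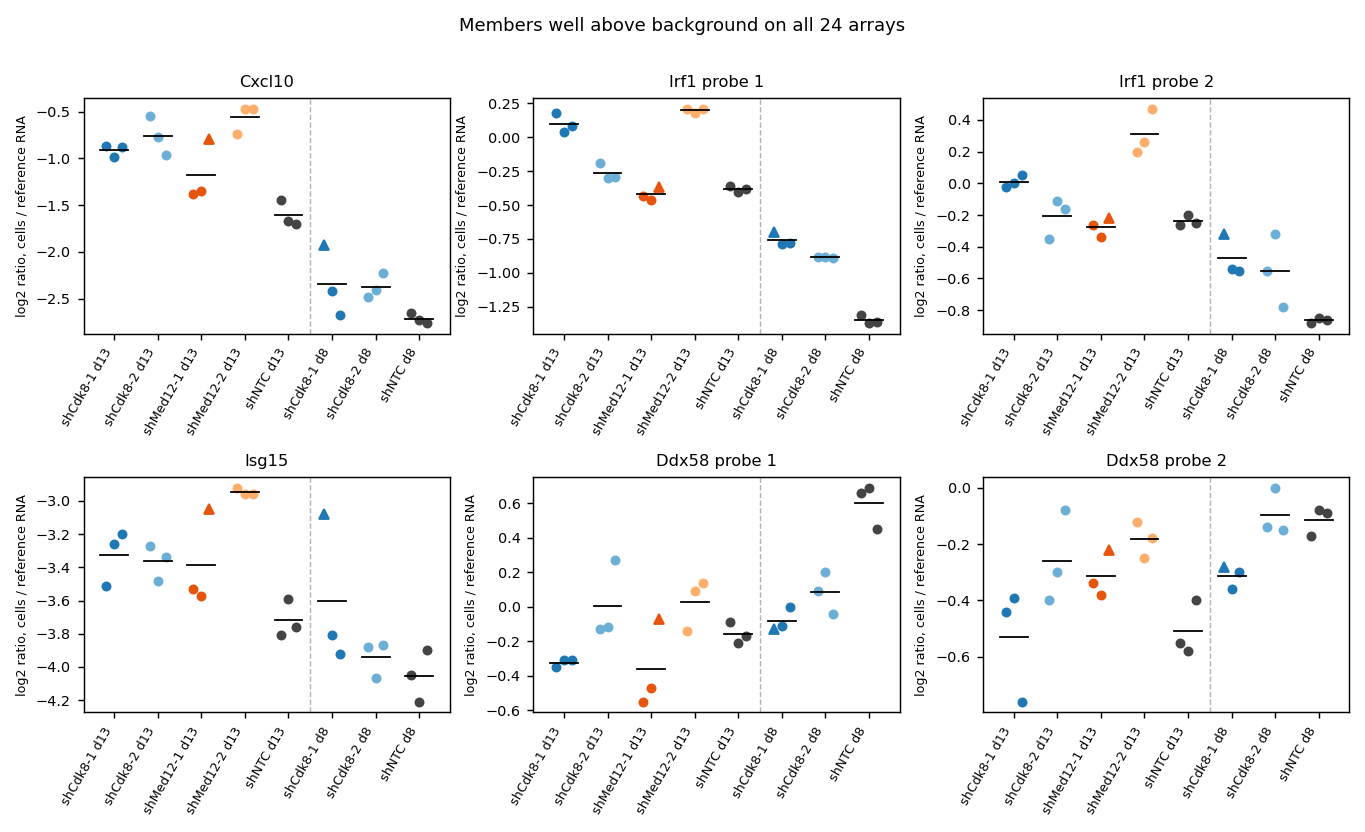
Log2 ratio to the reference RNA (y axis) of each of the 24 arrays for the 6 probes that were well above background on every array. Points are arrays, bars are group means, groups run from day 13 (left of the dashed line) to day 8, and triangles mark the 2 arrays with compressed ratios. Cxcl10 and Irf1 probe 1 lay higher in every day 13 array than in any day 8 array, and shNTC cells of day 8 stood apart on Ddx58 probe 1, at 0.45 to 0.69.

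Irf1 encodes an interferon-induced transcription factor that acts on antiviral and antigen-processing genes. Probe 1 gave -0.36, -0.40 and -0.38 in shNTC cells on day 13, against -1.31, -1.37 and -1.36 on day 8. The days did not overlap. Irf1 rose by 0.97 (SE 0.05, 1.95-fold) in shNTC cells on this probe (limma, adjusted p = 2.4e-11) and by 0.63 (SE 0.09, adjusted p = 7.2e-05) on probe 2. On the 2 slides that held both days the differences were 0.91 and 0.99 on probe 1 and 0.68 and 0.60 on probe 2. In shCdk8-1 cells the rise was 0.86 (adjusted p = 4.8e-11) on probe 1 and 0.48 (adjusted p = 7e-04) on probe 2, with 0.75 and 0.86 on probe 1 on the shared slides. In shCdk8-2 cells it was 0.62 (adjusted p = 4.6e-09) and 0.34 (adjusted p = 0.0094), with 0.58 and 0.59 on probe 1 on the shared slides. Without shCdk8-2 day 8 replicate 3 the value on probe 2 was 0.23 and no longer called (adjusted p = 0.074).

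The Cdk8 hairpins raised Irf1 on day 8. Probe 1 gave -0.70, -0.79 and -0.78 in shCdk8-1 cells and -0.88, -0.88 and -0.89 in shCdk8-2 cells, against -1.31 to -1.37 in shNTC cells. The hairpins did not overlap shNTC. The rise was 0.59 (SE 0.05, limma adjusted p = 6.2e-08) with shCdk8-1 and 0.46 (SE 0.05, adjusted p = 1.6e-06) with shCdk8-2 on probe 1, and 0.40 (adjusted p = 0.0063) and 0.32 (adjusted p = 0.029) on probe 2. Without the 2 arrays with compressed ratios the rise with shCdk8-1 was 0.56 and 0.32 on probes 1 and 2 and was still called. With slide as a fixed block probe 2 was no longer called with either hairpin (0.37, adjusted p = 0.21, with shCdk8-1 and 0.24, adjusted p = 0.27, with shCdk8-2), and with Cy5 alone it was 0.13 (adjusted p = 0.43) with shCdk8-1. With median centring in place of loess, neither probe was called with shCdk8-2 (0.44, adjusted p = 0.27, on probe 1 and 0.3, adjusted p = 0.51, on probe 2). Probe 2 was not called there with shCdk8-1 either (0.47, adjusted p = 0.089). Probe 1 with shCdk8-1 was called in 21 of 21 alternatives. The call of probe 2 with shCdk8-2 was lost when any 1 of the 3 shNTC arrays of day 8 or replicate 1 or 2 of shCdk8-2 was left out (values 0.20 to 0.32, adjusted p = 0.065 to 0.17). On the slide shared by shCdk8-2 and shNTC the differences were 0.41 and 0.11.

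On day 13 Irf1 probe 1 gave 0.18, 0.04 and 0.08 in shCdk8-1 cells and -0.19, -0.30 and -0.29 in shCdk8-2 cells, against -0.36, -0.40 and -0.38 in shNTC cells. It rose by 0.48 (SE 0.05, limma adjusted p = 1e-06) with shCdk8-1 and differed by 0.12 (adjusted p = 0.12) with shCdk8-2, not called. The hairpins themselves differed by 0.36 (shCdk8-1 over shCdk8-2, adjusted p = 3.1e-05), the 1 call among the 10 probes in that pair, beside 10.7% of all kept probes. Probe 2 differed from shNTC by 0.25 (adjusted p = 0.098) with shCdk8-1 and by 0.03 (adjusted p = 0.89) with shCdk8-2. The Cdk8 effect on day 13 minus that on day 8 was -0.23 (SE 0.06, adjusted p = 0.047) on probe 1 and -0.22 (SE 0.11, adjusted p = 0.47) on probe 2.

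The Med12 hairpins differed from each other on Irf1. Probe 1 gave -0.43, -0.46 and -0.37 in shMed12-1 cells and 0.21, 0.18 and 0.21 in shMed12-2 cells, against -0.36 to -0.40 in shNTC cells of day 13. With shMed12-2 Irf1 rose by 0.58 (SE 0.05, limma adjusted p = 2.3e-08) on probe 1 and by 0.55 (SE 0.09, adjusted p = 0.00026) on probe 2, with 0.61 and 0.56 on probe 1 on the slides shared with shNTC. With shMed12-1 it differed by -0.04 on each probe (adjusted p = 0.60 and 0.81, 95% intervals -0.14 to 0.06 and -0.23 to 0.16). The difference of shMed12-1 from shMed12-2 was -0.62 (adjusted p = 1.1e-08) and -0.59 (adjusted p = 0.00012). No slide held both hairpins. With slide as a fixed block over all arrays both probes were still called. In order of the group means on probe 1, shMed12-2 (0.20 ± 0.02) and shCdk8-1 (0.10 ± 0.07) of day 13 led and touched at 0.18, followed by shCdk8-2 (-0.26 ± 0.06), shNTC (-0.38 ± 0.02) and shMed12-1 (-0.42 ± 0.05) of day 13, of which shNTC and shMed12-1 overlapped, and then, each apart from the next, shCdk8-1 (-0.76 ± 0.05), shCdk8-2 (-0.89 ± 0.01) and shNTC (-1.35 ± 0.03) of day 8 (SD, n = 3 each).

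Irf7 encodes the factor that amplifies type I interferon transcription. Its probe was well above background on 16 of 24 arrays. It gave -3.17, -2.91 and -2.96 in shNTC cells on day 13, against -2.52, -3.13 and -3.35 on day 8. The days overlapped, the difference was -0.01 (SE 0.28, limma adjusted p = 0.99), and its 95% interval was -0.59 to 0.56. Against shNTC, Irf7 differed by between 0.02 and 0.50 with the hairpins of day 13 and by 0.42 and 0.18 with shCdk8-1 and shCdk8-2 on day 8, none called. The 2 highest of the 24 arrays, at -1.85 and -1.86, were the 2 arrays with compressed ratios. Without them the difference with shMed12-1 was 0.18 in place of 0.50, and that with shCdk8-1 on day 8 was 0.05 in place of 0.42.

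Cxcl10 encodes a chemokine that interferons and NF-kappaB signalling induce. It was well above background on all 24 arrays. It gave -1.44, -1.67 and -1.70 in shNTC cells on day 13, against -2.65, -2.73 and -2.76 on day 8. Every array of day 13 was higher than every array of day 8. The rise was 1.11 (SE 0.16, 2.16-fold, limma adjusted p = 5.2e-05) in shNTC cells, and it was 0.98 and 1.03 on the 2 slides that held both days. In shCdk8-1 cells Cxcl10 gave -0.87, -0.99 and -0.88 on day 13, against -1.93, -2.42 and -2.68 on day 8. The rise there was 1.43 (SE 0.16, 2.69-fold, adjusted p = 1.5e-06), and 1.63 (adjusted p = 8.8e-10) without the 2 arrays with compressed ratios. In shCdk8-2 cells it gave -0.55, -0.77 and -0.96 on day 13, against -2.48, -2.41 and -2.23 on day 8, a rise of 1.62 (SE 0.16, 3.06-fold, adjusted p = 2.4e-07). On the slides that held both days the rise was 0.94 and 1.54 in shCdk8-1 cells and 1.71 and 1.45 in shCdk8-2 cells. The rise with time was thus called in all 3 lines and under each of the alternatives run for these 3 comparisons.

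The Cdk8 hairpins raised Cxcl10 on day 13. Its ratios, given above, did not overlap those of shNTC cells with either hairpin. Cxcl10 rose by 0.69 (SE 0.16, 1.61-fold, limma adjusted p = 0.0067) with shCdk8-1 and by 0.85 (SE 0.16, 1.80-fold, adjusted p = 0.0015) with shCdk8-2. On the slide shared by shCdk8-2 and shNTC the difference was 0.48. With slide as a fixed block the values were 0.59 (adjusted p = 0.32) and 0.80 (adjusted p = 0.082), no longer called (ranges over all alternatives 2.7e-05 to 0.32 and 7.6e-06 to 0.096). On day 8 the differences were 0.37 with shCdk8-1 (adjusted p = 0.13) and 0.34 with shCdk8-2 (adjusted p = 0.19), not called. Without the 2 arrays with compressed ratios that with shCdk8-2 was called (0.34, adjusted p = 0.022), and that with shCdk8-1 was 0.16 (adjusted p = 0.37). The Cdk8 effect on day 13 minus that on day 8 was 0.41 (SE 0.20, adjusted p = 0.39), not called. It was called in 3 of 33 alternatives: 0.52 without the 2 compressed arrays (adjusted p = 0.019), 0.50 without background subtraction (adjusted p = 0.032) and 0.64 with Cy5 alone (adjusted p = 0.0055).

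With shMed12-2, Cxcl10 gave -0.74, -0.47 and -0.47, against the -1.44 to -1.70 of shNTC cells. It rose by 1.04 (SE 0.16, 2.06-fold, limma adjusted p = 8.5e-05), by 0.93 and 1.22 on the slides shared with shNTC. With shMed12-1 it gave -1.38, -1.35 and -0.79, where the last is the array with compressed ratios, and differed from shNTC by 0.43 (adjusted p = 0.059), not called. That difference was called without shMed12-1 replicate 1 (0.53, adjusted p = 0.039) or replicate 2 (0.52, adjusted p = 0.041), in both of which the array with compressed ratios stayed (range over all alternatives 0.011 to 0.63). Without the 2 compressed arrays it was 0.24 (adjusted p = 0.14). The Med12 hairpins differed from each other by -0.61 (shMed12-1 over shMed12-2, SE 0.16, adjusted p = 0.0095), and by -0.51 (adjusted p = 0.056) without shMed12-1 replicate 1. No slide held both, and with slide as a fixed block the call was lost (-0.72, adjusted p = 0.20). In that pair 4 of the 10 probes were called, both of Irf1, Cxcl10 and Ddx58 probe 1, beside 20.2% of all kept probes. Ddx58 probe 1 differed there by -0.40 (adjusted p = 0.019), a call lost without shMed12-1 replicate 1 or 2 or shMed12-2 replicate 2 or 3 (values -0.37 to -0.30, adjusted p = 0.07 to 0.10) and with slide as a fixed block (-0.33, adjusted p = 0.28). In order of its group means, Cxcl10 ran from shMed12-2, shCdk8-2, shCdk8-1 and shMed12-1 of day 13, each of which overlapped the next, through shNTC of day 13, apart on both sides, to shCdk8-1 and shCdk8-2 of day 8, which overlapped, and shNTC of day 8, lowest and apart.

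Isg15 encodes a ubiquitin-like protein that interferon strongly induces. It was well above background on all 24 arrays but far below the reference on its probe, with a median ratio of -3.55. It gave -3.81, -3.59 and -3.76 in shNTC cells on day 13, against -4.05, -4.21 and -3.90 on day 8. The days did not overlap, but the difference of 0.33 (SE 0.16) was not called (limma, adjusted p = 0.18). This call depends on the processing: it was made in 7 of 21 alternatives (values 0.26 to 0.68, adjusted p = 1.6e-06 to 0.48), among them the log ratio of Feature Extraction (0.68, adjusted p = 6.6e-05) and the fit without the 2 arrays with compressed ratios (0.33, adjusted p = 0.0079). In shCdk8-2 cells Isg15 gave -3.27, -3.48 and -3.34 on day 13, against -3.88, -4.07 and -3.87 on day 8, and rose by 0.58 (SE 0.16, adjusted p = 0.012), with 0.40 and 0.73 on the shared slides. With slide as a fixed block it was 0.53 (adjusted p = 0.084, range over all alternatives 6.5e-07 to 0.11). Without shCdk8-2 day 8 replicate 2 that rise was 0.51 and no longer called (adjusted p = 0.052). In shCdk8-1 cells the difference was 0.28 (adjusted p = 0.25), and 0.54 (adjusted p = 0.00026) without the 2 arrays with compressed ratios.

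With shMed12-2, Isg15 gave -2.92, -2.96 and -2.96, the highest of all groups, and rose by 0.77 over shNTC (SE 0.16, 1.71-fold, limma adjusted p = 0.0021), with 0.67 and 0.79 on the shared slides. With shMed12-1 it gave -3.53, -3.57 and -3.05, with the compressed array last, a difference of 0.34 (adjusted p = 0.15). That was 0.17 (adjusted p = 0.24) without the 2 compressed arrays, and with Cy5 alone it turned to -0.19 and was called lower (adjusted p = 0.044, range over all alternatives 0.044 to 0.89). On day 13 it was higher than in every shNTC array with shCdk8-1 (0.39, adjusted p = 0.14) and with shCdk8-2 (0.36, adjusted p = 0.19), and neither was called. Without the 2 arrays with compressed ratios both were (adjusted p = 0.0032 and 0.0075, at the same values). On day 8 it differed by 0.45 (adjusted p = 0.068) with shCdk8-1 and 0.11 (adjusted p = 0.73) with shCdk8-2. With shCdk8-1, replicate 1, the array with compressed ratios, was at -3.08, and the other 2 were at -3.81 and -3.92. Without the 2 compressed arrays that difference was 0.19 (adjusted p = 0.21).

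Ifit1 encodes a protein that binds viral RNA and blocks its translation, and Ifit3 encodes a related interferon-stimulated protein. The Ifit1 probe was well above background in the reference on 24 of 24 arrays and in the cells on 0, and its ratios had a median of -2.74. No fold is given for it. Ifit3 was well above background on 23 of 24 arrays, with a median ratio of -2.46. It gave -2.37, -2.46 and -2.57 in shNTC cells on day 13, against -2.48, -2.35 and -2.67 on day 8. The days overlapped, and the difference was 0.04 (SE 0.18, limma adjusted p = 0.93, 95% interval -0.34 to 0.41). Against shNTC on day 13, Ifit3 differed by -0.09 and 0.05 with the first and second Cdk8 hairpin and by 0.33 and 0.09 with the first and second Med12 hairpin, and by 0.33 and -0.13 with shCdk8-1 and shCdk8-2 on day 8, none called. Without shMed12-1 replicate 2 the difference with shMed12-1 was 0.53 and was called (adjusted p = 0.04, range over all alternatives 0.04 to 0.84), with replicate 3, the array with compressed ratios, at -1.61 against -2.27 and -2.53. Without the 2 compressed arrays it was 0.06 (adjusted p = 0.75), and that with shCdk8-1 on day 8 was 0.13 (adjusted p = 0.52). Between the Cdk8 hairpins on day 8 Ifit3 differed by 0.46 (limma adjusted p = 0.09), not called. That was 0.60 and called (adjusted p = 0.037) without shCdk8-1 replicate 3, and 0.26 (adjusted p = 0.14) without the 2 compressed arrays.

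Usp18 encodes the protease that removes Isg15 from proteins and dampens the interferon receptor. It was well above background on 23 of 24 arrays, with a median ratio of -4.35. It gave -4.43, -4.53 and -4.58 in shNTC cells on day 13, against -4.35, -4.59 and -4.04 on day 8, with overlap. The difference was -0.19 (SE 0.21, limma adjusted p = 0.62, 95% interval -0.63 to 0.25). Of the hairpin comparisons, shMed12-1 gave the largest value, 0.57 (SE 0.21, adjusted p = 0.054), with -4.09, -4.28 and -3.45 in its 3 arrays, of which the last is the compressed one. It was called in 3 of 20 alternatives (adjusted p = 0.021 to 0.71), and was 0.33 (adjusted p = 0.064) without the 2 compressed arrays. The others differed from shNTC by between 0.10 and 0.17 on day 13 and by 0.28 and -0.03 with shCdk8-1 and shCdk8-2 on day 8, not called. Without those arrays the value with shCdk8-1 was -0.04.

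**Figure D3:**
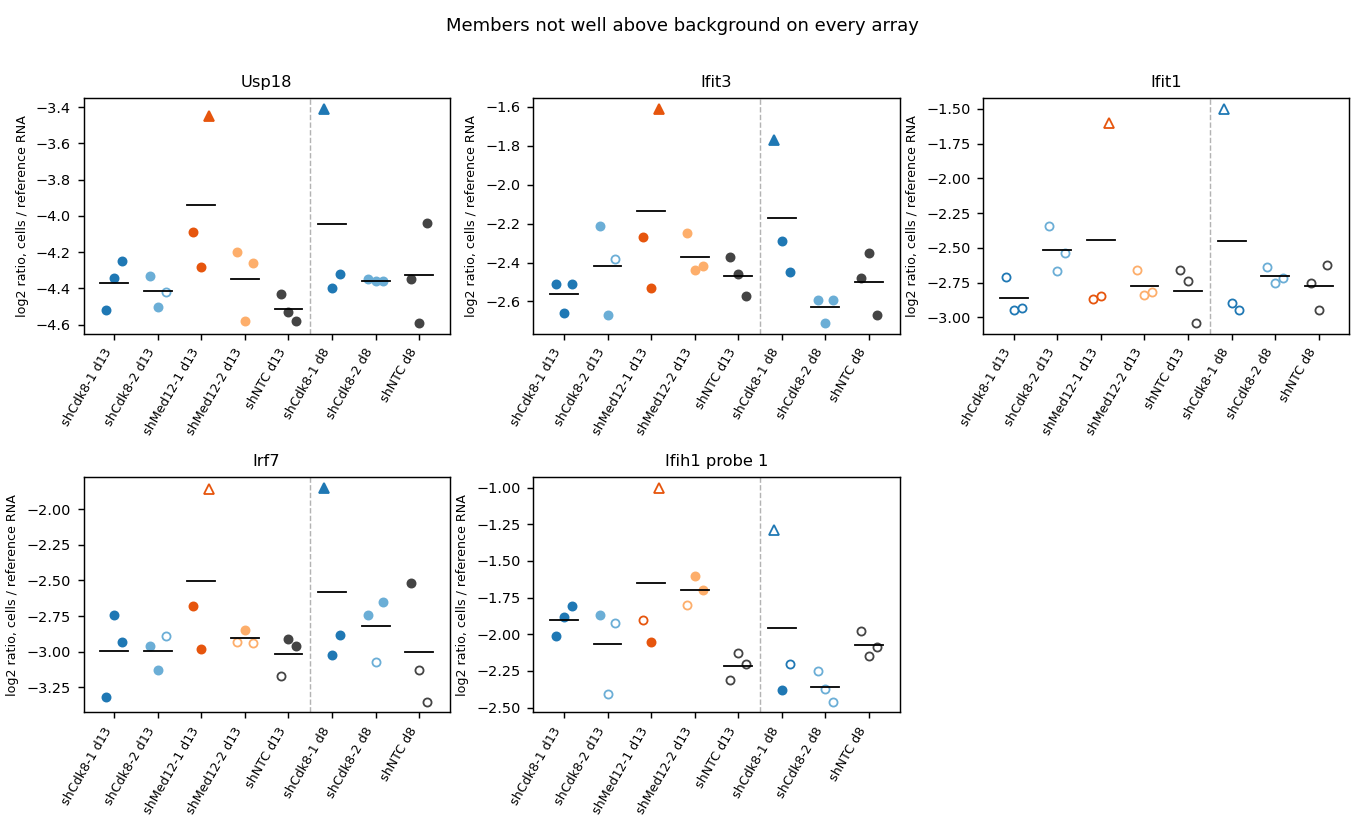
Log2 ratio to the reference RNA (y axis) of each of the 24 arrays for 5 probes that were not well above background on every array. Filled points were well above background in the cells and open ones were not, bars are group means, and triangles mark the 2 arrays with compressed ratios. The triangles are the highest points in each panel (Usp18 at -3.45 and -3.41, against a median of -4.35 over all arrays).

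Probes of one gene were compared over 12 comparisons, 6 knockdowns, 3 of day 13 with day 8 and 3 pairs of hairpins of one target. Both Irf1 probes had the same sign in 12 of 12, with both called in 7, 1 in 2 and neither in 3, and their ratios correlated at r = 0.94 over the 24 arrays. Ddx58 probes 1 and 2 had the same sign in 10 of 12, with both called in 1, 1 in 4 and neither in 7, and correlated at r = 0.65. The 24 arrays share groups and slides, so these correlations describe the arrays and carry no test. Ddx58 probe 3 and Ifih1 probe 2, neither well above background, correlated with probe 1 of their gene at r = 0.02 and 0.13.

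**Figure D4:**
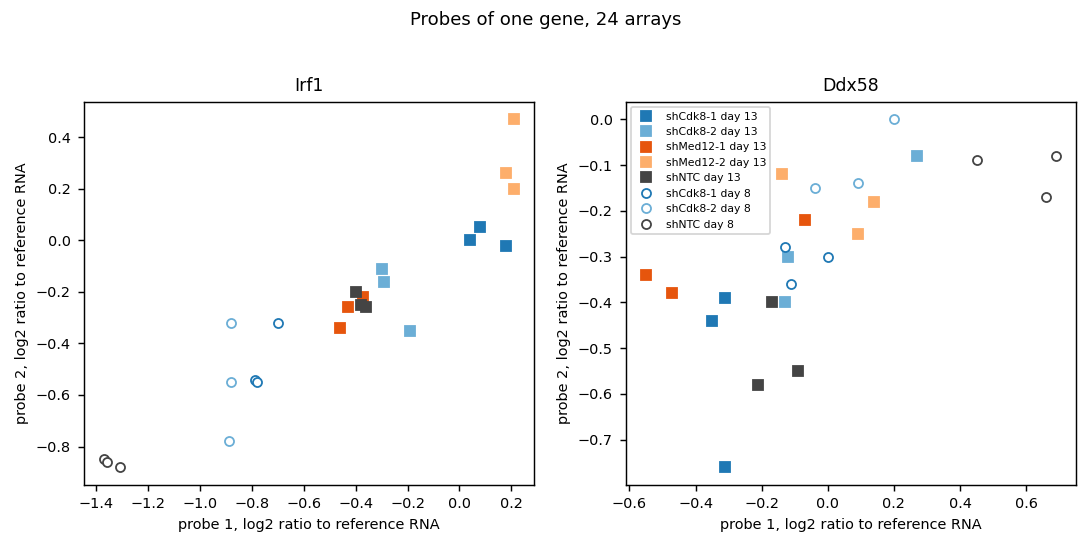
Log2 ratio to the reference RNA on probe 1 (x axis) and probe 2 (y axis) of Irf1 (left) and Ddx58 (right), 1 point per array, with squares for day 13 and open circles for day 8. On Irf1 the arrays that were high on probe 1 were also high on probe 2 (r = 0.94), and on Ddx58 the 3 shNTC arrays of day 8 lie far to the right on probe 1 (0.45 to 0.69) and overlap the shCdk8-2 arrays of day 8 on probe 2.

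The other genes of the pathway were counted on 3 lists by the brightest kept probe, and for a knockdown a gene counted when it was called with both hairpins in 1 direction. In all, 5.04% of 13725 genes with a symbol did so for Cdk8 on day 13, 10.3% for Med12 and 5.90% for Cdk8 on day 8, and 18.5% were called for day 13 against day 8 in shNTC cells. The days gave 24.0% in shCdk8-1 cells and 29.0% in shCdk8-2 cells, where 2 and 6 sensors and adaptors rose and 2 and 2 fell. Of 21 sensors and adaptors, none was called for Cdk8 on either day. With Med12 knockdown Rnf135, which ubiquitinates RIG-I, rose by 0.30 (mean of both hairpins) and Mavs, the adaptor of both sensors, fell by 0.21. In shNTC cells on day 13, Prkra, an activator of the kinase PKR, rose by 0.47, whereas Trim25, which also ubiquitinates RIG-I, fell by 0.35 and Eif2ak2, the gene of PKR, fell by 0.22. The list medians were 0.01, 0.06, -0.04 and 0.10 in these 4 comparisons, against -0.002, -0.0014, -0.0065 and 0.016 over all genes.

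Of 22 interferons, receptors and signalling genes, Socs1, an inhibitor of Jak kinases, rose by 0.24 and Ifnlr1, the lambda interferon receptor, fell by 0.49 with Cdk8 knockdown on day 13. Ifnlr1 also fell, by 0.39, on day 8. With Med12 knockdown 3 rose and 0 fell: Jak2 by 0.69, Jak1 by 0.30 and Ifngr1, a chain of the gamma interferon receptor, by 0.22. In shNTC cells 3 rose and 2 fell on day 13, with Ifngr1 at 0.35, Jak1 at -0.32 and Socs1 at 0.26. Jak1 and Ifngr1 thus moved with time in shNTC cells as well, Jak1 in the opposite direction to Med12 knockdown. Ifnb1, the gene of interferon beta, was well above background on 0 of 24 arrays and the interferon gene Ifng on 2. Other interferon genes of the list were so on more arrays: Ifna1 on 24, Ifnl3 on 20 and Ifna4 on 8. The list medians were 0.00, -0.04, -0.03 and 0.07 for Cdk8 on day 13, Med12, Cdk8 on day 8 and day 13 against day 8 in shNTC cells.

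Of 30 other interferon-stimulated genes, Ifitm3, which blocks viral entry, rose by 0.52 and Bst2, which tethers budding virus, by 0.28 with Cdk8 knockdown on day 13, and none fell. On day 8 Samhd1, a dNTPase that restricts retroviruses, fell by 0.31 and none rose. With Med12 knockdown none was called with both hairpins, and the list median was 0.16. In shNTC cells on day 13, 4 rose and 1 fell, with Oasl2 at 0.73, Phf11d at -0.55 and Bst2 at 0.51. The list median was 0.12 for Cdk8 on day 13, 0.12 for Cdk8 on day 8 and -0.02 in shNTC cells.

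**Figure D5:**
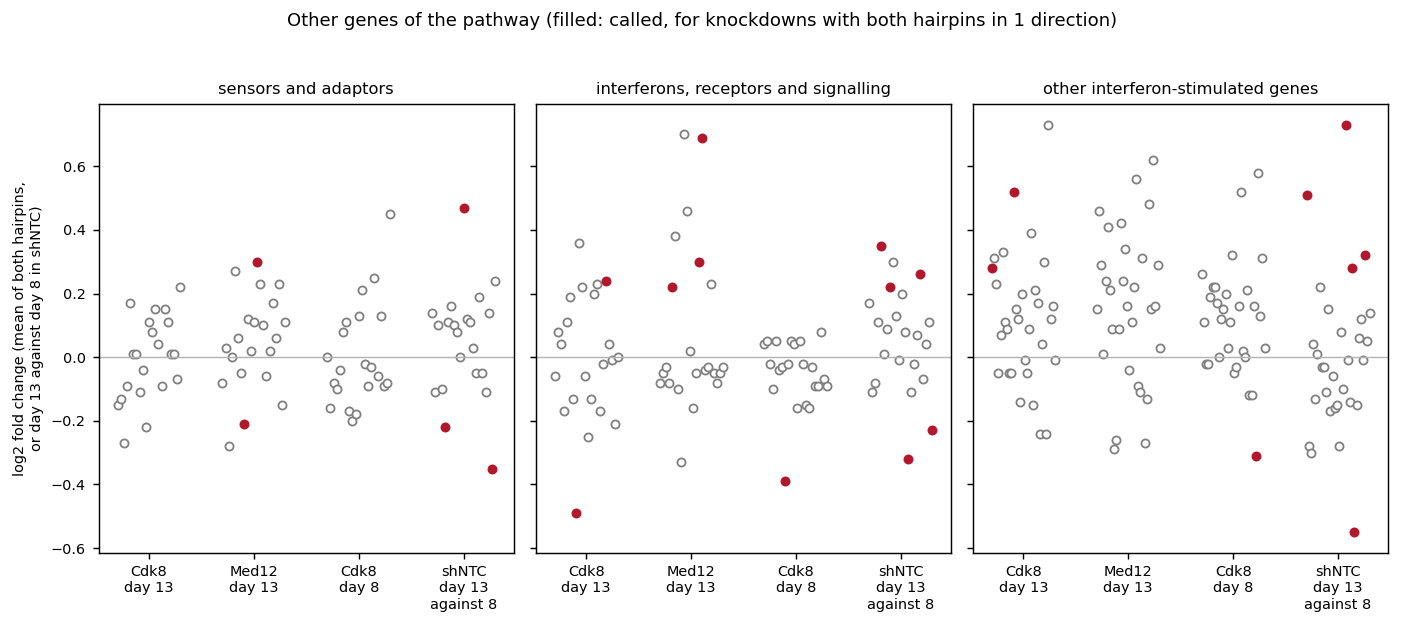
Log2 fold change (y axis) of each kept gene of the 3 pathway lists (panels) with Cdk8 and Med12 knockdown on day 13, Cdk8 knockdown on day 8 and day 13 against day 8 in shNTC cells (x axis). Filled points were called, for knockdowns with both hairpins in 1 direction. At most 3 genes of a list were called in a knockdown, and the filled points lie on both sides of 0.

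Genes listed as markers of other cell types moved in some of these comparisons. In shNTC cells on day 13 against day 8, 1 of 10 fibroblast markers rose and 2 fell, 1 of 7 kept leukocyte markers fell (Laptm5, -0.66) and 1 of 5 endothelial markers fell (Pecam1, -0.44). Of all genes with a symbol, 18.5% were called in that comparison, so these counts are not read as particular to the markers. Pecam1 was the only endothelial marker well above background on all 24 arrays, beside Kdr on 23, Tek on 21, Emcn on 11 and Cdh5 on 8. Whether endothelial cells were present was not tested. Summed over a list as linear ratios to the reference, fibroblast markers ranged from 1.38 to 1.59 in shNTC cells on day 13, against 1.34 to 1.61 on day 8. Leukocyte markers ranged from 1.86 to 1.93 on day 13, against 2.18 to 2.43 on day 8, and endothelial markers from 6.02 to 6.61, against 6.78 to 6.99. In the shMed12-2 arrays, where Cxcl10, Irf1 and Isg15 were highest, the leukocyte sum was 1.87 to 1.92, against 1.86 to 1.93 in shNTC cells, and the fibroblast sum was 1.31 to 1.59, against 1.38 to 1.59. In the shMed12-1 arrays the leukocyte sum was 3.00 on the array with compressed ratios and 1.94 and 2.18 on the other 2. ES cell markers summed to 656 on that array and to 1080 and 1090 on the other 2 shMed12-1 arrays, and to 1210 to 1230 in shMed12-2 cells, against 1460 to 1590 in shNTC cells of day 13. A lower sum was not particular to the Med12 hairpins. On day 13 it was 1170 to 1280 in shCdk8-1 cells and 1270 to 1630 in shCdk8-2 cells. The compressed shCdk8-1 array of day 8 was low too, at 687, beside 1330 and 1490 on the other 2 of its group. With Med12 knockdown, 10.3% of all genes with a symbol were called with both hairpins in 1 direction. There the median change of the kept markers was -0.63 for ES cells, with none of 8 called with both hairpins. It was 0.29 for fibroblasts, with Col1a1 called (0.99), and 0.56 for leukocytes, with none of 7 called. Without the compressed arrays these medians were -0.54, 0.19 and 0.33. The part of these shifts in the results was not tested.

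The genes whose ratios ran most like those of each member over the 24 arrays, of 13717 genes with a symbol, were Psmb8 (r = 0.975) and Lsr (r = 0.971) for Irf1, Ghr (r = 0.979) and Fam107b (r = 0.973) for Cxcl10, Pkia (r = 0.941) and Pla2g7 (r = 0.934) for Isg15, and Ilf2 (r = 0.809) and Tyk2 (r = 0.777) for Ddx58. Psmb8 encodes an immunoproteasome subunit. For the dim members these were Rhoj (r = 0.934) and Gpc6 (r = 0.916) for Ifih1, Hpse (r = 0.922) and Ephb6 (r = 0.892) for Irf7, Pla2g4a (r = 0.913) and Fxyd1 (r = 0.912) for Ifit3, and Mylk (r = 0.959) and Isg20 (r = 0.926) for Usp18. Without the 2 arrays with compressed ratios r was between 0.622 and 0.894 for these 4 members and, for Irf1, Cxcl10, Isg15 and Ddx58, between 0.802 and 0.983. Such correlations follow the group means and the arrays' shared slides and depth, and are a description.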

How the data were processed

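Spot and local background intensities, as medians over pixels, were deposited as Agilent Feature Extraction 10.7 wrote them, with Cy5 for the cells and Cy3 for the reference RNA, per the file headers and the labels. The log10 ratio of red over green in the same files had been background-subtracted and dye-normalized by Feature Extraction, per the file headers. A further table, deposited by the authors, gives log2 ratios for these arrays, with processing unstated. Set against the scanner ratios it had slopes of 1, and its column medians lay between -0.0049 and 0.12. Per the labels, 750 ng of cRNA was hybridised, and no dyes were swapped.

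Intensities were corrected with normexp (offset 50) and loess-normalized within arrays (span 0.3, control and outlier spots at weight 0) in limma 3.58.1 (R 4.3.3, with data.table in version 1.17.8). Scripts for promoters, summaries and figures used Python 3.11.15. Of 45018 spots 1639 were controls, and 0 were saturated. The remaining spots gave 41174 probes, 22951 with a symbol through RefSeq accessions. A probe was kept if some group had it well above background in the cells' channel on each of its 3 arrays, less 63 with missing values, which left 28231. A limma fit of 8 group means over 24 arrays (16 residual degrees of freedom) was adjusted by Benjamini-Hochberg over all kept probes. The number of arrays limits the precision. On simulated data for shCdk8-1 against shNTC on day 8, with 200 of the 28231 probes changed by 1 on the log2 scale, the fit called 98% of these in the right direction, with 7 false calls. The 24 arrays lay on 8 slides and were scanned on 1 day. No column was left unmapped.

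Named were all probes of the 9 genes, Cdk8 and Med12, the 2 genes most correlated with each member, and up to 3 called genes per pathway list. The members and lists were chosen with earlier results of these data known. The comparisons of day 13 with day 8 within shCdk8-1 and shCdk8-2 were added after the data were seen.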

Additional observations from a re-analysis of the deposited data

Results flagged for a closer look

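The Cdk8 knockdown effect, averaged over both hairpins, differed between the days on 2 of the 10 kept probes, by the interaction term of the limma fit. On Ddx58 probe 1 the effect was -0.01 on day 13 and -0.60 on day 8, a difference of 0.59 (SE 0.14, adjusted p = 0.032). It was called in 23 of 33 alternatives (values 0.52 to 0.71, adjusted p = 0.0063 to 1). The call was lost without shNTC day 13 replicate 1, 2 or 3, shCdk8-1 day 13 replicate 3, shNTC day 8 replicate 1 or 2, or shCdk8-2 day 8 replicate 3 (values 0.55 to 0.63).

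On Irf1 probe 1 the effect was 0.30 on day 13 and 0.53 on day 8, a difference of -0.23 (SE 0.06, adjusted p = 0.047), called in 11 of 33 alternatives (values -0.35 to -0.21, adjusted p = 0.012 to 1). It was lost in most fits that left out 1 array. Probe 2 of neither gene was called for this difference, at 0.21 (adjusted p = 0.45) for Ddx58 and -0.22 (adjusted p = 0.47) for Irf1.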

How the results depend on the processing

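Of the 33 called values of the 9 genes, 32 stayed called with the Feature Extraction log ratio, 32 with the authors' values, 33 without background subtraction, 33 with quantile normalization, 28 with Cy5 alone, 24 with slide as a fixed block, 32 with slide as a random block, 29 with only the groups compared and 11 with median centring. Counts of called probes moved as follows, with not every move listed, and the cause was not tested. Here and below, the share of all probes called under each setting is not given. The moves can therefore not be read as particular to the 9 genes. With shCdk8-1 against shNTC on day 13 (2 called) they were 4 with Feature Extraction, 4 with the authors' values, 5 without background subtraction, 0 with median centring, 4 with quantile normalization, 1 with slide as a fixed block and 5 with only the groups compared. With shCdk8-2 on day 13 (1 called) they were 2, 2, 3, 0, 2, 0 and 2 under the same settings and 2 with Cy5 alone. With shMed12-1 (0 called) they were 2 with Feature Extraction, 2 with the authors' values, 2 without background subtraction, 3 with Cy5 alone, 1 with probes well above background on all 24 arrays and 1 with a normexp offset of 10, a setting chosen after seeing the data. With shMed12-2 (5 called) they were 1 with median centring and 3 with 1 probe per gene, and for day 13 against day 8 in shNTC cells (5 called) 3 with 1 probe per gene. With shCdk8-1 on day 8 (3 called) they were 5 with Feature Extraction, 6 with the authors' values, 5 without background subtraction, 1 with median centring and 1 with slide as a fixed block, and with shCdk8-2 on day 8 (3 called) 0 with median centring. Between the Cdk8 hairpins on day 13 (1 called) they were 3 without background subtraction, 0 with median centring, 2 with quantile normalization and 2 with probes well above background on all 24 arrays. On day 8 (0 called) they were 1 with Feature Extraction, 1 with the authors' values, 1 without background subtraction, 2 with quantile normalization, 2 with Cy5 alone and 1 on all 24 arrays. Between the Med12 hairpins (4 called) they were 1 with median centring, 2 with slide as a fixed block and 2 with only the groups compared. Feature Extraction also added limma calls where only falls are listed above. These were Ifih1 with shMed12-2 (1.58, adjusted p = 0.0011) and Cxcl10 with shCdk8-2 on day 8 (0.66, adjusted p = 0.0016). Isg15 was added for the days in shNTC cells (0.68, adjusted p = 6.6e-05). Isg15 (-0.8, adjusted p = 8.1e-06) and Ddx58 probe 2 (-0.43, adjusted p = 0.047) were added between the Med12 hairpins. These Isg15 calls and Ifih1 with shMed12-2 were also made with the authors' values, no background subtraction, quantile normalization and Cy5 alone. In the other direction, Ddx58 probe 2 lost its limma call for the days in shNTC cells under 2 settings. It was -0.4 (adjusted p = 0.054) with median centring and -0.25 (adjusted p = 0.12) with Cy5 alone. For the difference of the Cdk8 effect between days (2 called) the counts were 0 with median centring and 1 each with Feature Extraction, the authors' values, no filter, slide as a fixed block, slide as a random block and only the groups compared, and 4 without the 2 compressed arrays. Between the Cdk8 hairpins on day 13 and with shCdk8-2 on day 13 the compressed arrays left out gave 3 and 2, and with shMed12-1 1. For day 13 against day 8 they were, in shCdk8-1 cells (3 called), 5 with Feature Extraction, the authors' values, no background subtraction, quantile normalization or without the compressed arrays and 2 with median centring or 1 probe per gene, and in shCdk8-2 cells (4 called) 2 with median centring and 3 to 5 otherwise.

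Leaving out 1 array gave 2 to 2 calls with shCdk8-1, 1 to 2 with shCdk8-2, 0 to 4 with shMed12-1 and 4 to 5 with shMed12-2 on day 13. On day 8 it gave 3 to 5 with shCdk8-1 and 2 to 3 with shCdk8-2, and for the days 3 to 4 in shCdk8-1 cells, 3 to 4 in shCdk8-2 cells and 5 to 5 in shNTC cells. Between hairpins it gave 1 to 2 (Cdk8, day 13), 0 to 2 (Cdk8, day 8) and 2 to 5 (Med12), and 0 to 2 for the difference between days. Cxcl10 between the Cdk8 hairpins on day 8 (0.03) turned to -0.34 with quantile normalization and -0.31 with Cy5 alone, and Isg15 with shMed12-1 (0.34) turned to -0.19 with Cy5 alone, all 3 called there.

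Deviations of samples with the same replicate number correlated at -0.25 to 0.21. Pairs over 0.1 were 2 of shCdk8-1 with shNTC on day 8 and 2 of the Cdk8 hairpins on day 8. With 3 arrays a group, these correlations cannot settle whether the numbers pair samples. With the replicate block all 33 calls stayed and 1 was added with shMed12-1 (Usp18 0.57, adjusted p = 0.042). Dim signal limits Ifih1, Irf7 and Ifit1, which were not well above background on most or some arrays.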
